A study of Caenorhabditis elegans with 5 samples.

Results

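The 10 genes described here encode the cyclins, the cyclin-dependent kinases and the ribonucleotide reductase subunits that carry cells through DNA replication and division. They were taken from the 45461 genes of the deposited tables by identifier. For 9 of the 10 the identifier was found, and cdk-1, whose given identifier stood in no table, was matched by its gene name to T05G5.3. The RefSeq annotation gives each of these 9 identifiers the gene name it was chosen for. For cdk-1 that annotation was itself the source of the match, so it is no check there.

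RNA was sequenced from whole Caenorhabditis elegans hermaphrodites grown at 20 °C, with 1 library for each of 5 groups. Bacteria with the empty RNAi vector L4440 were the food of the young adult (day 1 of adulthood) and control (day 3) groups. The gld-1 RNAi group was collected on day 3, and 2 other gld-1 RNAi groups were moved on day 2, for 48 h, to unseeded plates (fasted) or to L4440 bacteria (fed) and are labelled as day 4. Each library pooled ca. 3000 animals of 2 independent experiments, which hides the spread between experiments and leaves every comparison without replicates. Feeding RNAi lowers gld-1 in whole animals, and the labels differ on whether it began in L1 larvae or after day 1 of adulthood. The labels used here name no strain. Gene totals ran from 13803289 to 27598482 reads per library, and ribosomal RNA took 3.51% of them in the young adult library and 25.402% to 27.8% in each of the others. The RNAi target gld-1 stood at 17593 (young adult), 20339.9 (control), 1994 (gld-1 RNAi), 3061 (fed) and 1592 (fasted), in reads divided by a size factor over the 5 libraries, called the level below. No marker of intestine, body wall muscle, oocytes, mitotic or meiotic germ cells was at 0 in any library.

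Cyclins are regulatory subunits that appear and vanish with the cell cycle and switch on cyclin-dependent kinases. Cyclin D and cyclin E act in G1 and at entry into S phase, and B-type cyclins with CDK-1 drive mitosis and the meiotic divisions. Ribonucleotide reductase, made of large and small subunits, turns ribonucleotides into the deoxyribonucleotides that DNA synthesis needs. Somatic cells of the adult worm no longer divide, so its dividing cells lie in the germline, and oocytes are loaded with maternal mRNA for the fast divisions of the embryo. GLD-1 is a germline RNA-binding protein that represses translation of its targets, cye-1 mRNA among them, and without it germ cells re-enter mitosis and form a germline tumour. RNA levels as measured here do not show the protein.

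The day 3 control library held the highest level of 9 of the 10 genes, cdk-2 being the exception. The young adult library held the lowest level of 8, while cyb-3 and cyb-2.2 were lowest in the fed gld-1 RNAi library. The share of all measured genes with such extremes is not given here, so these counts describe the 10 genes alone. Scaled to equal totals of reads, the young adult was lowest for only 3 (cye-1, cdk-2 and cyd-1) and the fed library for the other 7. The control stayed highest for 9 with that scaling, and for 7 with equal upper quartiles, where cye-1 and cyd-1 were highest in the fasted library. The 10 genes together took 0.198% (young adult), 0.446% (control), 0.224% (gld-1 RNAi), 0.207% (fed) and 0.244% (fasted) of the reads outside ribosomal RNA. Their highest level was between 1.59-fold (cye-1) and 5.70-fold (cyd-1) above their lowest. Among the 3 gld-1 RNAi libraries the span was smaller, from 0.13 (cdk-2) to 0.47 (cyb-3) on the log2 scale.

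The kinase CDK-1 and its B-type cyclins had their highest level in the control library, while with this scaling cyb-3 alone lay below the young adult in all 3 gld-1 RNAi libraries. cyb-3 (T06E6.2), a cyclin B3 of embryonic mitosis, stood at a level of 8172 (young adult), 19096 (control), 5924 (gld-1 RNAi), 5189 (fed) and 7175 (fasted). The control was thus far above the other 4, and all gld-1 RNAi libraries lay below the young adult. cyb-1 (ZC168.4), a cyclin B1 of mitosis and meiosis, stood at 4665, 10224, 5321, 5544 and 5818 in the same order of libraries. cdk-1 (T05G5.3), the kinase itself, stood at 2540.5, 6210.4, 3095, 2949 and 3294. For cyb-1 and cdk-1 all gld-1 RNAi libraries lay above the young adult and far below the control. The close paralogues cyb-2.2 (H31G24.4) and cyb-2.1 (Y43E12A.1), both of the cyclin B family, may share reads that the authors' counting split or lost. cyb-2.2 stood at 2179.9, 5165, 2290.1, 1999.8 and 2505. cyb-2.1 stood at 1418, 2761, 1516, 1418 and 1747. In both, the control was highest and the other 4 libraries lay close together. For cyb-2.1 the young adult and the fed library, and for cyb-2.2 the young adult and the gld-1 RNAi library, did not differ beyond counting error.

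The genes of G1 and S phase entry varied less with gld-1 RNAi. cye-1 (C37A2.4), cyclin E, stood at 2484 (young adult), 3956.5 (control), 3092 (gld-1 RNAi), 3363 (fed) and 3438 (fasted). cdk-2 (K03E5.3), the kinase partner of cyclin E, stood at 671, 1141, 1280.0, 1364 and 1248 in the same order. In cdk-2 all gld-1 RNAi libraries lay above the control, and neighbours in order among these 3 did not differ beyond counting error. Genes annotated on the same and on the other strand of cdk-2 stand in no deposited table. Any of their reads that were counted as cdk-2 cannot be told apart. cyd-1 (Y38F1A.5), cyclin D, was the scarcest of the 10 at 59.7, 341, 260.0, 256 and 304. It was far lower in the young adult, where it rested on 54 reads, and among the other 4 libraries no neighbours in order differed beyond counting error. The last 2 libraries of cye-1, fed and fasted, did not differ beyond it either.

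Both subunits of ribonucleotide reductase had their highest level in the control as well. rnr-1 (T23G5.1), the large subunit, stood at 5104 (young adult), 12699 (control), 6488 (gld-1 RNAi), 6724 (fed) and 7213 (fasted). rnr-2 (C03C10.3), the small subunit, stood at 5375, 15847, 6155, 5555 and 6884. For rnr-2 the young adult and the fed library did not differ beyond counting error. A gene annotated on the other strand of rnr-2, C03C10.2, held 1 to 53 reads per library against at least 4307 for rnr-2.

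**Figure D1:**
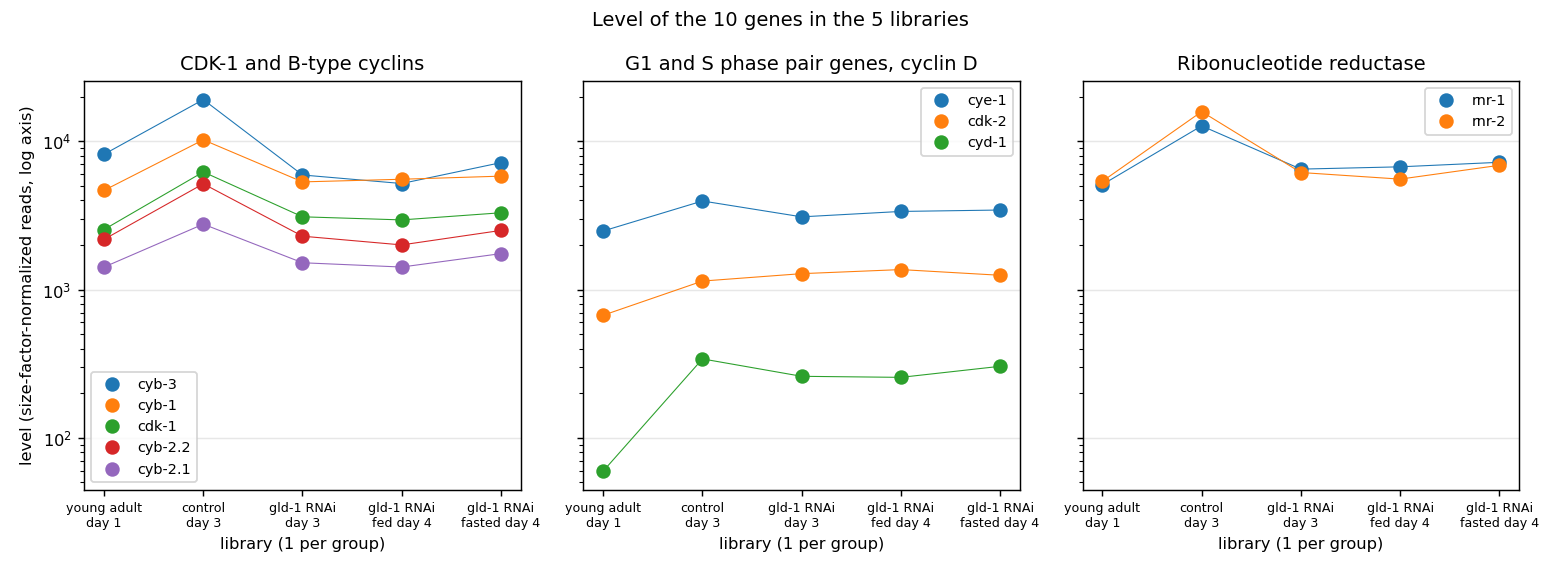
Level of each of the 10 genes (reads divided by a size factor over the 5 libraries, log axis) in the 5 libraries, 1 per group, in panels by role; thin lines join the points of a gene. The control point is the highest of 9 genes, for instance 19096 for cyb-3, and cyd-1 stands lowest at 59.7 in the young adult. The share of all measured genes that are highest in the control is not given.

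Set beside each other per kilobase of exon, cyb-3 was the most abundant of the 10 in the young adult (level of 5594 per kilobase) and the control (13070.4). rnr-2 took that place in the gld-1 RNAi (4441), fed (4008) and fasted (4967) libraries. cdk-2 and cyd-1 were the 2 least abundant in all 5 libraries, cyd-1 at 29.7 to 169 per kilobase.

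Ratios of 2 genes within a library do not depend on how libraries are scaled. The ratio of cyb-3 to cyb-1 per kilobase was 2.03 in the young adult (95% counting interval 1.95 to 2.11) and 2.16 in the control (2.11 to 2.21). In the gld-1 RNAi library it was 1.29 (1.25 to 1.33), in the fed 1.08 (1.05 to 1.12) and in the fasted 1.43 (1.37 to 1.49). The 3 gld-1 RNAi libraries thus lay below both libraries without gld-1 RNAi, the young adult and the control. The ratio of rnr-1 to cyb-1 moved least, at 0.703 in the young adult and between 0.779 and 0.798 in the other 4 libraries. The ratio of cyb-1 to cdk-1, a cyclin and its kinase, stayed between 1.15 and 1.32. The small to large reductase subunit ratio, rnr-2 to rnr-1, was 2.001 (young adult), 2.37 (control), 1.80 (gld-1 RNAi), 1.57 (fed) and 1.81 (fasted). It was highest in the control and lowest in the fed library, with intervals that did not overlap those of any other library. The ratio of cye-1 to cdk-2 was 4.08 in the young adult and 3.82 in the control, against 2.66, 2.72 and 3.03 in the gld-1 RNAi, fed and fasted libraries. Here the intervals of both libraries without gld-1 RNAi lay above those of the 3 gld-1 RNAi libraries.

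**Figure D2:**
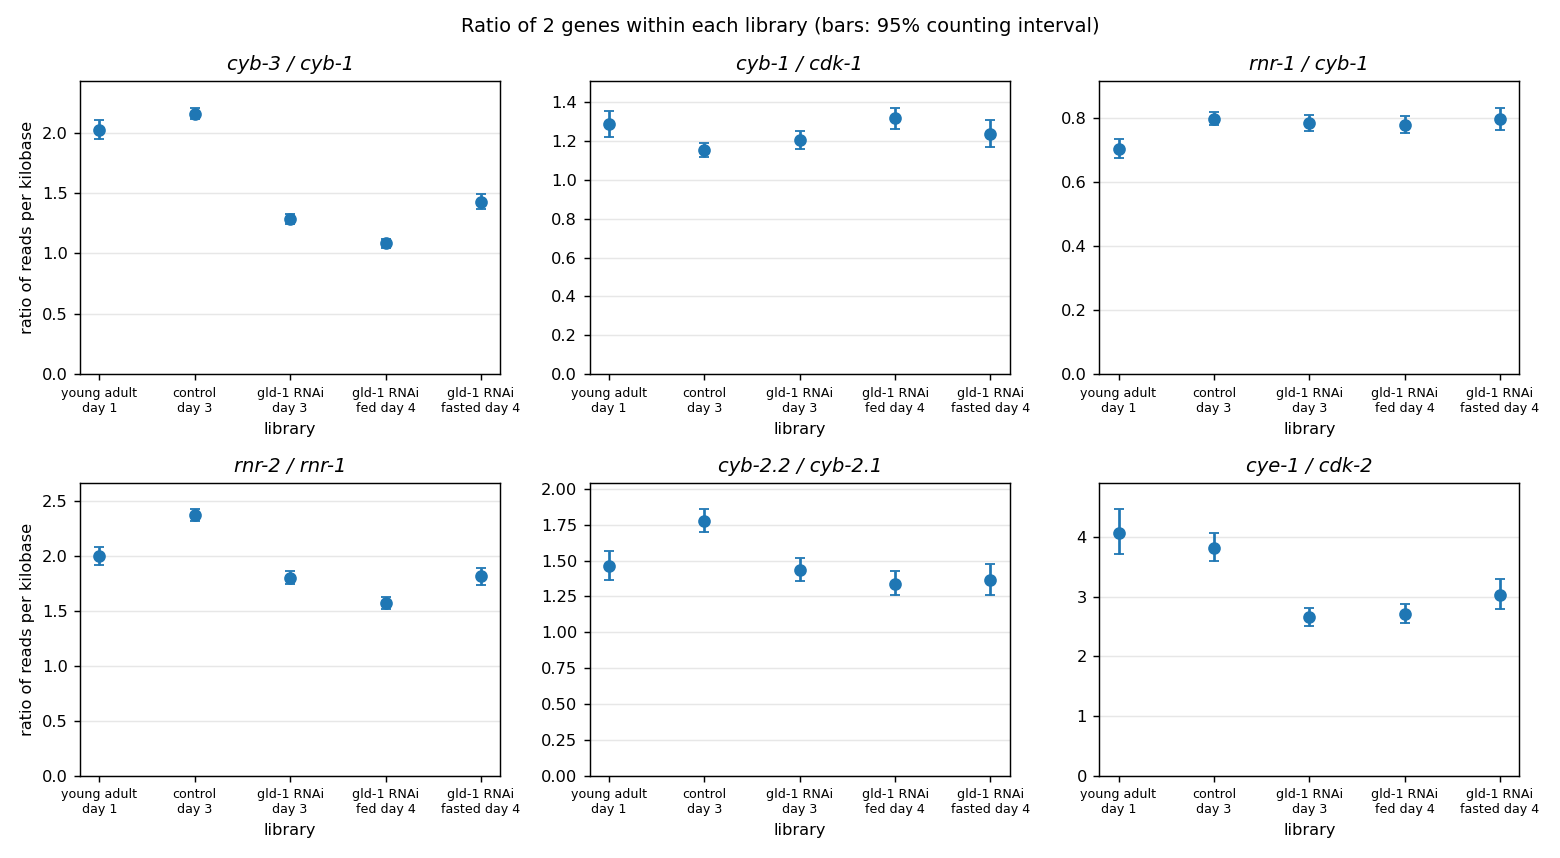
Ratio of reads per kilobase of exon between 2 genes within each of the 5 libraries, with 95% counting intervals, which cover counting error only. The ratio of cyb-3 to cyb-1 stands at 2.03 and 2.16 in the young adult and control libraries, which had no gld-1 RNAi, and at 1.08 to 1.43 in the gld-1 RNAi libraries, while that of rnr-1 to cyb-1 stays between 0.703 and 0.798.

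At equal age (day 3), the control and gld-1 RNAi libraries set animals without and with gld-1 RNAi beside each other. With gld-1 RNAi the B-type cyclins, cdk-1 and both reductase subunits were lower, and the genes of G1 and S phase entry differed little. Log2 folds here and below are of the second library over the first, on the authors' normalized reads within a table plus 1, and a gene was counted when it was at least 1.5-fold apart. Of the 10 genes 7 lay 1.5-fold or more below the control, against 19.3% of the 9791 genes whose mean reached 50 normalized reads, and none lay as far above it, against 16.8%. The median of the 10 was -0.90, and that of all measured genes -0.10. cyb-3 had the lowest log2 fold, -1.64 (95% counting interval -1.67 to -1.60), and 97.6% of measured genes had a higher one. rnr-2 followed at -1.31 (-1.35 to -1.27) and cyb-2.2 at -1.12 (-1.18 to -1.06). These 3 were more than 2-fold lower. cdk-1 (-0.95), rnr-1 (-0.92), cyb-1 (-0.89) and cyb-2.1 (-0.81) lay between 1.75-fold and 1.93-fold lower. The log2 fold of cye-1 was -0.30 (-0.36 to -0.24), that of cyd-1 -0.34 (-0.55 to -0.12) and that of cdk-2 0.22 (0.11 to 0.32). These 3 stayed within the fold limit. The authors' deposited table gives cyb-3 an adjusted p of 0.894 and the 9 other genes 1. With the libraries scaled to their totals, their totals without ribosomal RNA or their upper quartiles, 13.9% to 15.9% of all measured genes were called lower and 19.2% to 21.0% higher.

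Markers of several cell types differed between these libraries as well. All 21 oocyte markers lay 1.5-fold or more below the control (median log2 fold -1.63), with a summed level of 492462 against 156487 and none at 0. Of 11 markers of mitotic germ cells and germ granules, 3 were lower and 3 higher (median -0.14), with summed levels of 61633 and 69523. Of 10 meiotic markers none was lower and 3 were higher (median 0.07), with summed levels of 15521 and 21489. Of 12 early embryo markers 7 could be measured and all 7 were lower (summed level over all 12 of 1896 and 385, with hlh-27 and med-1 at 0 in both). From gld-1 RNAi to fed only 2 of the 12 reached the mean for measured genes. Markers could thus pass through a high control alone, which partly fixed that direction. The 12 sperm markers had summed levels of 89.1 and 624, with 6 at 0 in the control and none in the gld-1 RNAi library. Outside the germline, 8 of 9 intestine markers were lower (median -0.99, summed level 21177 and 10784), as were 3 of 6 measured hypodermis markers (5134 and 2691). Of 10 body wall muscle markers 3 were higher and none was lower (29046 and 35516). In RNA from whole animals, fewer cells of a type and less RNA per cell cannot be told apart. The part of these cells in the folds of the 10 genes was not tested.

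The sum over CDK-1 and its B-type cyclins stood at 41.8% of the control in the gld-1 RNAi library, and that over rnr-1 and rnr-2 at 44.3%. The sum over cye-1, cdk-2 and cyd-1 stood at 85.2%. Oocyte markers stood at 31.8%, mitotic germ cell and germ granule markers at 113% and meiotic germ cell markers at 138% of the control. The sum of the mitotic list lay above the control although 6 of its 11 genes had log2 folds below 0 (median -0.14). That of the meiotic list did so although 5 of its 10 genes had log2 folds below 0 (median 0.07).

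**Figure D3:**
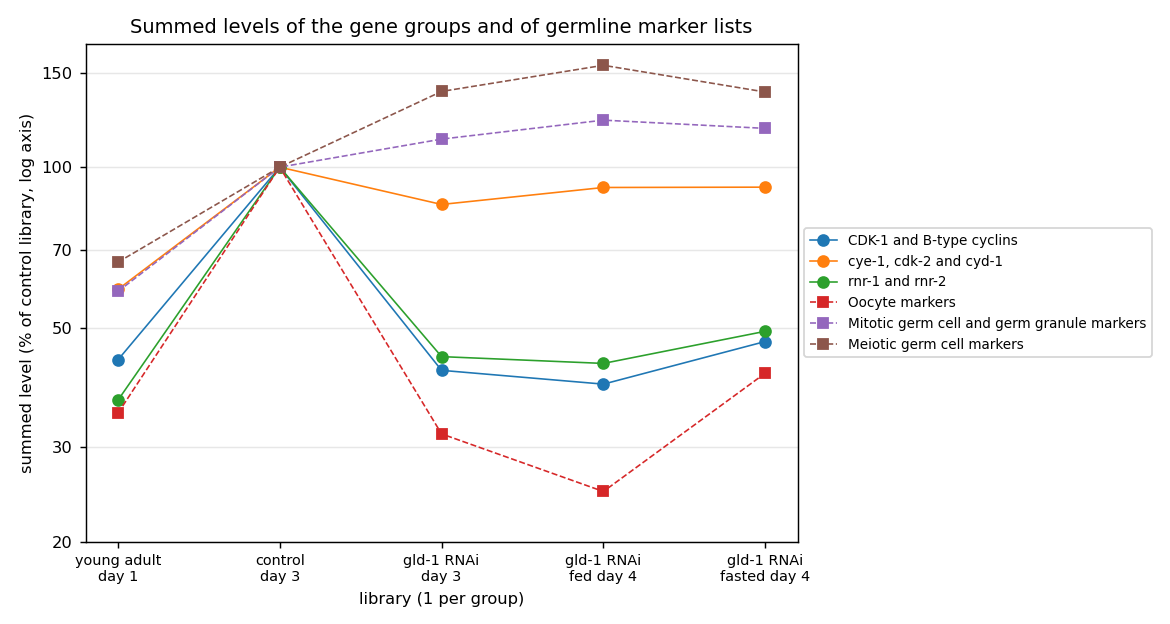
Summed level, in percent of the control library (log axis), of the 10 genes in 3 groups by role (circles) and of 3 germline marker lists (squares) in the 5 libraries, 1 per group. In the gld-1 RNAi library the CDK-1 group stands at 41.8% and the cye-1 group at 85.2%. The oocyte markers stand at 31.8%, the mitotic germ cell and germ granule markers at 113% and the meiotic germ cell markers at 138%. From control to gld-1 RNAi 6 of the 11 mitotic and 5 of the 10 meiotic markers had log2 folds below 0.

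Other genes of the cell cycle, 61 in 6 lists, were read in the same way. In the comparison of control and gld-1 RNAi, 15 of the 58 measured (25.9%) passed the limit downwards, against 19.3% of all measured genes, and 1 upwards (1.72%, against 16.8%), with a median of -0.34. The share lower was thus not far from that of all genes. Of the regulators of entry into mitosis, 5 of 8 measured were lower (median -0.64). Among them were the CDK-activating phosphatases cdc-25.2 (F16B4.8), at 1558 and 679.6 normalized reads (log2 fold -1.196), and cdc-25.3 (ZK637.11), at 1105 and 541 (-1.03). The inhibitory kinase wee-1.3 (-0.39) and the polo-like kinase plk-2 (-0.03) stayed within the fold limit. Of the anaphase-promoting complex and cyclin turnover genes, 5 of 18 (27.8%) were lower (median -0.32). They included zyg-11 (C08B11.1), the substrate receptor of a CUL-2 ubiquitin ligase that acts on cyclin B, at 12615 and 5503 (-1.197), and the securin ify-1 (-0.98). Of 5 nucleotide supply genes 3 were lower (median -0.62), such as the dUTPase dut-1 (K07A1.2), at 11031 and 5467 (-1.01), and the nucleoside diphosphate kinase ndk-1 (-0.66). The G1/S list had 1 of 11 lower and 1 higher (median -0.08). The lower one was cdk-4 (-0.79), the kinase partner of cyclin D. The higher one was the CDK inhibitor cki-1 (T05A6.1), at 51.3 and 187 normalized reads (1.85). Of 8 other cyclins only ccnk-1 (-0.70), a cyclin K of transcription, was lower, and of 9 other cyclin-dependent kinases only cdk-4, which stands in both lists.

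The young adult and control libraries, both from animals on control food, differ in age. They differ in the share of ribosomal RNA as well (3.51% and 27.8% of reads), and the parts of these in the folds cannot be told apart. The young adult and control libraries share no deposited table, so their values were set on the scale of all 5 libraries. All 10 genes lay 1.5-fold or more above the young adult in the day 3 control, against 33.6% of 10480 measured genes, and none was lower, against 33.0%. Scaled to equal totals of reads, 7 of the 10 were past the limit, with 13.2% of all genes higher and 44.0% lower, and their overall median moved from 0.16 to -0.37. The median of the 10 was 1.23. cyd-1 was highest at 2.49 (95% counting interval 2.099 to 2.95), which 1.81% of measured genes surpassed. rnr-2 stood at 1.56 (1.51 to 1.61), rnr-1 at 1.31 (1.27 to 1.36) and cdk-1 at 1.29 (1.22 to 1.36). The cyclins cyb-2.2 (1.24), cyb-3 (1.22), cyb-1 (1.13) and cyb-2.1 (0.96) lay close together. cdk-2 (0.76) and cye-1 (0.67) differed least. Of the 58 other cell cycle genes measured, 45 were higher and 1 was lower, the latter being cki-1 (105 and 42.8, log2 fold -1.28). The highest were the phosphatase cdc-25.2 (298 and 1299, 2.12) and zyg-11 (2434 and 10518, 2.11). All 21 oocyte markers were higher as well (summed level 170973 and 492462), and all 10 body wall muscle markers were lower (203510 and 29046). Of 9 intestine markers 6 were lower and 2 higher (summed level 71994 and 21177). Of 10 hypodermis markers 6 were lower and 2 higher (44164 and 5134). Of 11 mitotic germ cell and germ granule markers 7 were higher and none was lower (36116 and 61633). Of 10 meiotic markers 3 were higher and none was lower (10313 and 15521). The 12 early embryo markers had summed levels of 343 and 1896. The part of these cells in the folds was not tested.

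The young adult and gld-1 RNAi libraries differ in both age and RNAi. Of the 10 genes 2 lay 1.5-fold or more above the young adult, against 31.6% of 10795 measured genes, and none was lower, against 30.7%. These 2 were cyd-1, with a log2 fold of 2.22 (95% counting interval 1.82 to 2.68), and cdk-2, with 1.04 (0.91 to 1.18). The log2 fold of rnr-1 was 0.46, that of cye-1 0.43 and that of cdk-1 0.40. cyb-3 alone lay below 0, at -0.35 (-0.40 to -0.30). Scaled to equal totals, cyb-1, cyb-2.1, cyb-2.2, cdk-1 and rnr-2 also turned below 0 and cyb-3 reached -0.78. The overall median then moved from 0.12 to -0.33, with 16.6% of measured genes higher and 41.3% lower. With equal totals without ribosomal RNA or equal upper quartiles, cyb-3 alone lay below 0, at -0.40 and -0.24. Of the 58 other cell cycle genes, 32 were higher and none was lower. The highest were gfi-3 (M163.4), of the anaphase-promoting complex, at 199 and 926 normalized reads (2.22), and the kinase cdk-11.2 (1.74). tyms-1 (Y110A7A.4), the thymidylate synthase, stood at 512 and 1365 (1.41). Between these libraries all 10 body wall muscle markers were lower (summed level 203510 and 35516), as were 7 of 9 intestine markers (71994 and 10784) and 7 of 10 hypodermis markers (44164 and 2691). Of 11 mitotic germ cell and germ granule markers 8 were higher and none was lower (36116 and 69523). Of 10 meiotic markers 5 were higher (10313 and 21489). Of 21 oocyte markers 4 were lower and 1 was higher (170973 and 156487). Of 8 measured sperm markers 7 were lower and 1 was higher (4627 and 624, over all 12). From gld-1 RNAi to fed only 2 of the 12 were measured. Sperm markers could thus pass through a high young adult alone, which partly fixed their direction. The part of these cells in the folds was not tested.

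**Figure D4:**
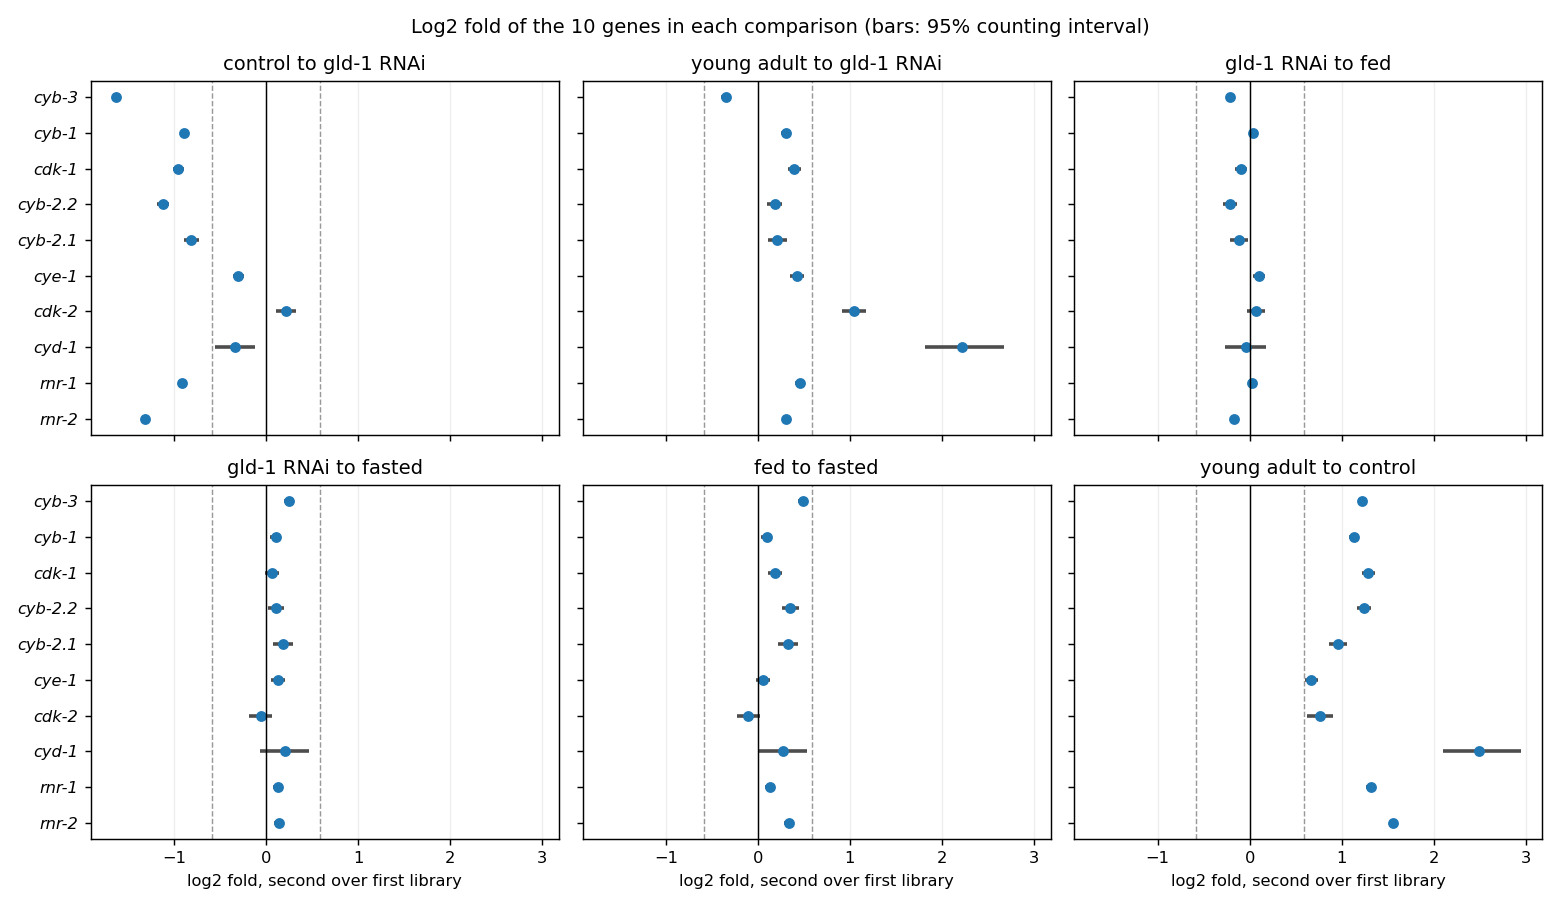
Log2 fold of each of the 10 genes in 6 comparisons (points, second library named over the first) with 95% counting intervals (bars), which cover counting error only; dashed lines mark 1.5-fold. From control to gld-1 RNAi 7 points lie below the lower dashed line, from young adult to control 10 lie above the upper one (7 when scaled to equal totals), and none passes either line in the 3 comparisons among gld-1 RNAi libraries.

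The fed and fasted libraries, both labelled as day 4, set food against its absence in gld-1 RNAi animals, and gld-1 itself was lower in the fasted library (log2 fold -0.92). No gene of the 10 reached 1.5-fold upwards, against 4.08% of 8991 measured genes, or downwards, against 7.37%. The folds of 9 of the 10 lay above 0, against 56.02% of measured genes. Of these 9, 8 had a counting interval wholly above 0, against 29.97% of measured genes. Counting intervals are narrower for genes with more reads, and the measured genes were not matched to the 10 by reads. The shares with intervals above 0 are therefore not like for like. cyb-3 was nearest to the limit at 0.49 (95% counting interval 0.44 to 0.55), from 4464 to 6284 normalized reads, and 5.74% of measured genes had a higher fold. cyb-2.2 (0.35), rnr-2 (0.34) and cyb-2.1 (0.33) came next. cyd-1 (0.27), cdk-1 (0.19), rnr-1 (0.13) and cyb-1 (0.10) had smaller folds. cye-1 at 0.06 (-0.02 to 0.13) and cdk-2 at -0.10 (-0.23 to 0.02) had intervals that span 0. The median of the 10 was 0.23 and that of all measured genes 0.04. Of the 58 other cell cycle genes 1 was past the limit, the phosphatase cdc-25.3, at 271 and 493 normalized reads (0.86). The next in its list, cdc-25.2 (388 and 564, 0.54), was within it. Of the 21 oocyte markers 16 passed 1.5-fold upwards and none downwards, with summed levels of 122171 and 203141 and none at 0. Of 8 measured intestine markers 5 were lower and 3 higher, and of 10 body wall muscle markers 3 were lower (summed level 35428 and 25353). Their part in the folds of the 10 genes was not tested.

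**Figure D5:**
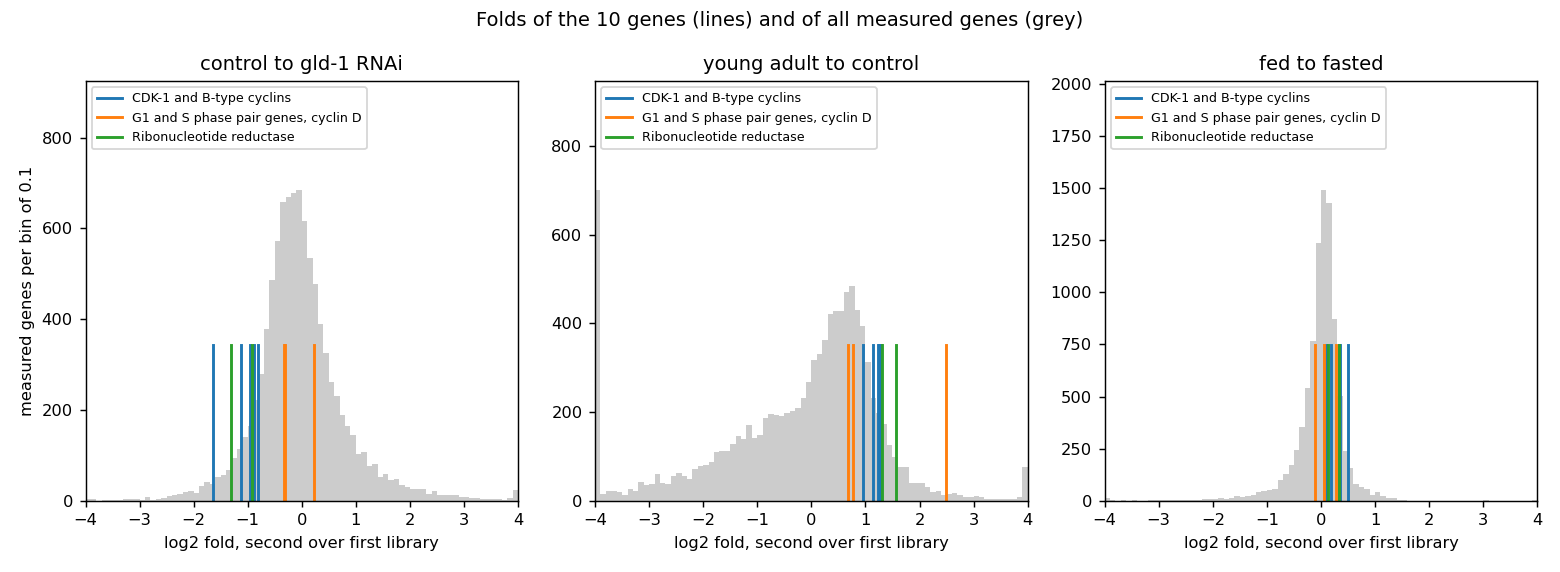
Number of measured genes per log2 fold bin of 0.1 (grey, with folds beyond the axis put in the end bins) and the log2 folds of the 10 genes (vertical lines, coloured by role, of no meaning in height) in 3 comparisons. The B-type cyclins, cdk-1 and both reductase genes lie between -1.64 and -0.81 from control to gld-1 RNAi and between 0.96 and 1.56 from young adult to control, and all 10 lie between -0.10 and 0.49 from fed to fasted.

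The gld-1 RNAi library of day 3 also stands beside the fasted and the fed library, which are labelled as day 4. Age label, the move to other plates and food differ together here. The log2 fold of gld-1 itself was -0.35 to fasted and 0.60 to fed. From gld-1 RNAi to fasted no gene of the 10 passed 1.5-fold, against 1.74% of 9100 measured genes higher and 7.41% lower. The folds ran from -0.06 (cdk-2, above 0 when scaled to equal upper quartiles) to 0.25 (cyb-3, 95% counting interval 0.20 to 0.31). From gld-1 RNAi to fed none passed it either, against 1.48% of 9895 measured genes higher and 2.2% lower. The lowest folds were those of cyb-2.2 (-0.22), cyb-3 (-0.21) and rnr-2 (-0.17), and the highest was that of cye-1 (0.10). cyb-1, cdk-2 and rnr-1 lay between 0.03 and 0.07 and turned below 0 when scaled to equal totals. None of the 58 other cell cycle genes passed the limit in either comparison. All 21 oocyte markers had folds above 0 to fasted (median 0.30, none past the limit). To fed all 21 had folds below 0 (median -0.36), and 4 passed the limit. The part of oocytes in the folds of the 10 genes was not tested. The gld-1 RNAi library enters 4 of the 5 deposited tables, and the fed and fasted libraries recur too, so these comparisons share values. The authors' deposited tables give all 10 genes an adjusted p of 1 in the 4 comparisons other than control to gld-1 RNAi.

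The patterns over the 5 libraries were compared by the root mean square difference of log2 levels, each gene centred on its own mean, which describes likeness over 5 values. Among the 10 genes cdk-1 and rnr-1 (0.07), cyb-1 and cdk-1 (0.07) and cyb-1 and rnr-1 (0.07) were most alike, and cyb-3 and cyd-1 least (1.05). Of 6487 other named protein-coding genes, those most like cyb-3 were mex-6 (AH6.5, 0.04), imp-1 (C36B1.12, 0.07) and spn-4 (ZC404.8, 0.09). mex-6 encodes a zinc finger protein of the early embryo and spn-4 an RNA-binding protein of oocytes and embryos, and both stand in the oocyte marker list. Those most like rnr-1 were aly-2 (F23B2.6, 0.02), mcm-5 (R10E4.4, 0.03), a subunit of the replicative helicase, and pcn-1 (W03D2.4, 0.04), the sliding clamp of DNA polymerase. Those most like cye-1 were csn-4 (Y55F3AM.15), prp-17 (F49D11.1) and nrde-4 (F45E4.10), each at 0.03. The median difference over these candidates was 0.75 for cyb-3, 0.51 for rnr-1 and 0.39 for cye-1.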

How the data were processed

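The submitters' processing notes name TopHat, HTSeq and DESeq, without versions. The genome build and strandedness are not given in the sources used here. There are 5 tables of 2 libraries each. Their deposited signal values are the authors' gene counts over a size factor that was set pair by pair. The adjusted p-value in the tables is the authors' own, per the file headers. DESeq's first and second column were taken as the first and second library in a table's name. Whole reads were recovered from the value of 1 read: 100% of values above 0 were whole within 0.1 read, and a recurring library gave equal reads in every table (0 genes differed).

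With 1 library per group a count model could not be fitted with residual degrees of freedom, no test was run, and the recovered reads give no number of called genes. Log2 folds compare the second with the first value after adding 1 to both, which understates changes of low genes; a gene was measured when its mean reached 50. The 95% intervals of ratios are exact (Clopper-Pearson, scipy 1.17.1) and cover counting error only; PCR copies are not independent molecules. Levels are recovered reads divided by median-of-ratios size factors over the 5 libraries. Of 45461 identifiers 44936 matched RefSeq locus tags or Ensembl release 115 (WBcel235), which gave names, biotypes and exon lengths. Of the 65 entries of the cell cycle lists 62 were matched (61 distinct genes), and of 96 markers 95. An entry whose annotation is no nucleotide enzyme was left out. Named genes were the 10, the 2 highest and 2 lowest of each list per comparison, the 3 most like cyb-3, cye-1 and rnr-1, and gld-1. The members, lists and rules were chosen with earlier results of these data known. The script was tested on simulated data.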

Additional observations from a re-analysis of the deposited data

How the results depend on the processing

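The counts of the 10 genes past 1.5-fold were recomputed with 3 other scalings, a pseudocount of 10 or none, a minimum mean of 200 or none, counting intervals wholly beyond 1.5-fold, and, chosen after seeing the data, the 9 genes found by identifier. For fed to fasted, and after seeing the data for young adult to control, folds were also taken through the 2 tables with the gld-1 RNAi library. From young adult to gld-1 RNAi, scaling to equal totals gave 1 gene lower (cyb-3) instead of 0, and a minimum mean of 200, which leaves out cyd-1, gave 1 higher instead of 2. All other counts past 1.5-fold stayed within 1.5 times. The number of genes lowest in the young adult, 8 as reported, was 3 with equal totals, 7 with equal totals without ribosomal RNA and 9 with equal upper quartiles, chosen after seeing the data. Without cdk-1, 6 of 9 were lower from control to gld-1 RNAi. Of 439 recomputed folds of single genes, 353 lay within the counting interval of the reported value and 86 did not. Of the 439, 11 changed sign, none of them of a gene past 1.5-fold. The 439 include folds with another minimum mean, which cannot move a fold. They also include folds with another pseudocount, which hardly moves genes with many reads. The 353 are therefore no measure of how stable the folds are to scaling. No paired analysis was possible because each group has 1 library. Leaving out a library removes every comparison that uses it and leaves the others as they are within their own tables.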

Other observations

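Of the 61 other cell cycle genes 3 had a mean level below 50 reads over the 5 libraries. cks-1 (C09G4.3), which encodes the small CDK-binding subunit, was listed at 0 reads in all 5 libraries, and 4.18% of its exon bases lie in another annotated gene. wee-1.1 (F35H8.7), a kinase that inhibits CDK-1, held 25 reads in the control and 1 to 3 in each of the other 4 libraries. cdc-25.4 (R05H5.2), a CDC25 phosphatase, held 44 reads in the young adult and 0 to 2 in each of the others. Of the 12 sperm markers, 6 were at 0 in the control and none in the young adult, with summed levels of 89.1 and 4627.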
